A study of Mus musculus with 13 samples.

Results

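Thrombomodulin, the receptors and cofactors of protein C, tissue factor with its inhibitor, and the receptors that thrombin and related proteases cleave were followed in liver endothelial cells as a group of 9 genes. The genes Thbd, Procr, Tfpi, Pros1, Gas6, F3, F2r, F2rl1 and F2rl3 were taken by symbol from a deposited table of 24421 gene symbols, and all 9 were found there. The cells came from germ-free mice (GF, 6 libraries), which carry no live microbes, and from conventionally raised mice (CONV-R, 7 libraries), which have a normal microbiota. Both groups are labelled wild type and were measured by bulk poly(A) RNA sequencing, with no treatment named. The labels give no strain, age or sex, do not say how the cells were purified, and do not say whether the libraries are from separate animals. The p-values therefore reflect how much these libraries vary, which may be partly technical.

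Endothelial cells line the liver sinusoids and keep the blood that passes them fluid. Thrombomodulin on their surface binds thrombin and turns it from a clotting enzyme into an activator of protein C, which the endothelial protein C receptor presents and which then inactivates clotting cofactors with the help of protein S. Tissue factor starts coagulation and tissue factor pathway inhibitor blocks that start, while thrombin also signals to cells by cutting protease-activated receptors, whose new amino terminus then acts as a tethered ligand.

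Of the 9 genes, 4 were higher in GF and 0 were lower (quasi-likelihood test of edgeR, p adjusted by Benjamini-Hochberg over 13915 genes, threshold 0.05). Over all genes tested, 11.4% were higher and 12.7% were lower, 24.1% in all. The 9 genes were chosen with earlier results of these data known, so these shares are set side by side as description only. At an unadjusted p under 0.05, edgeR still gave 0 lower, and DESeq2 and limma-voom also called 4 higher and 0 lower. The 4 genes were Thbd, F3, F2r and Pros1, and in each of them the lowest of the 6 GF libraries exceeded the highest CONV-R library, as was the case for 5.94% of all genes tested. The reverse separation, seen in 4.32% of all genes, was found in 0 of the 9. The median log2 fold change of the 9 genes was 0.16, against -0.01 for all genes. The other 5 genes, Procr, Tfpi, Gas6, F2rl1 and F2rl3, did not pass the test, and their groups overlapped.

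**Figure D1:**
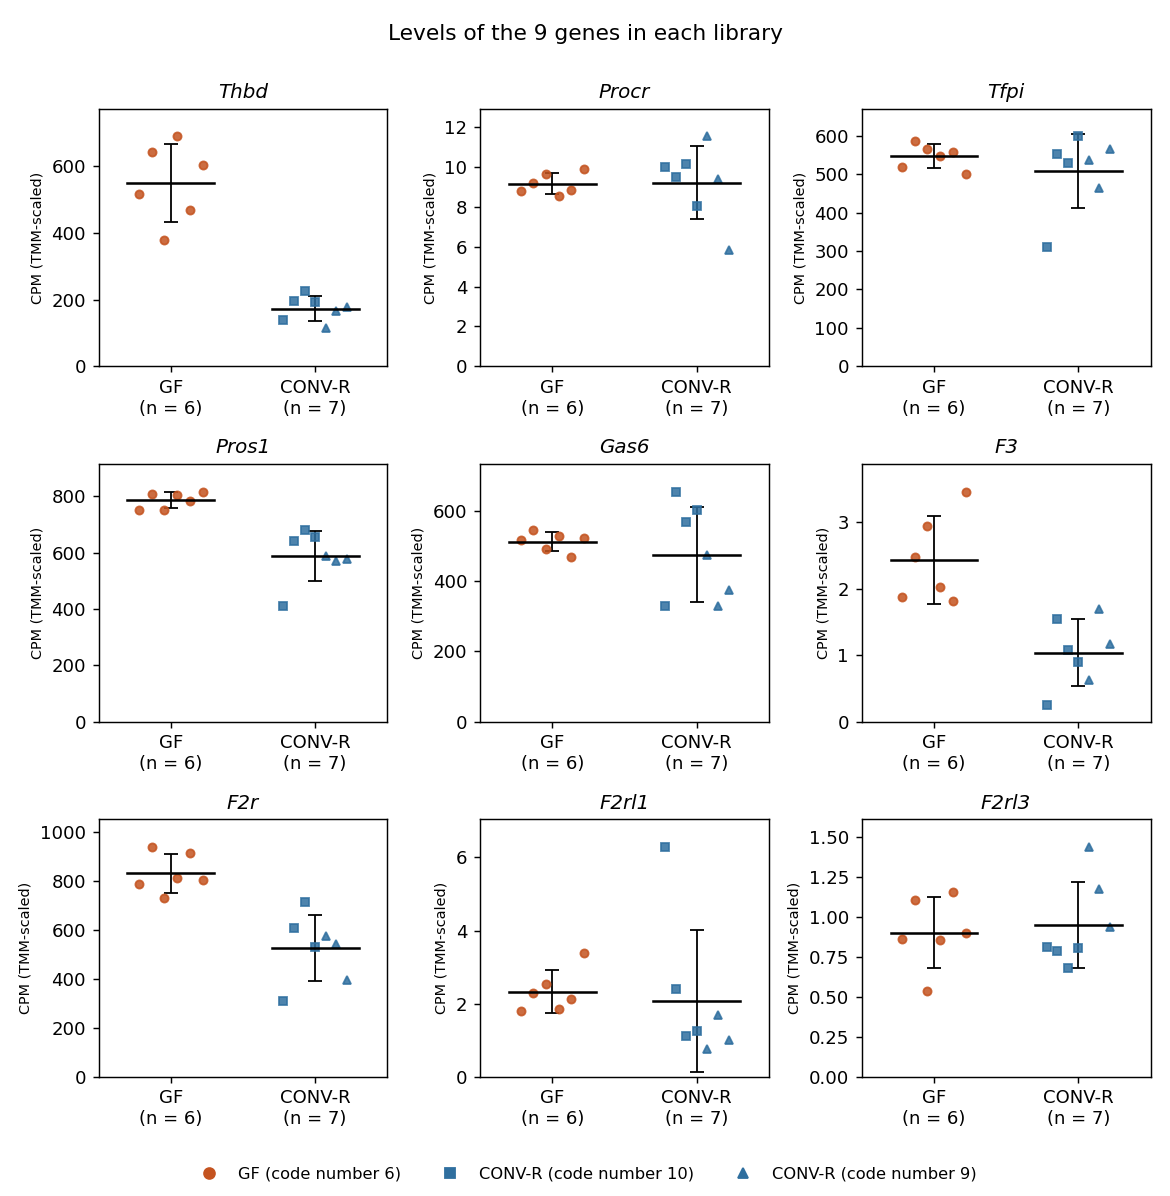
Level of each of the 9 genes in each library, in CPM (counts scaled to a common library size with TMM factors), with the vertical axis from 0. Points are libraries, horizontal bars are group means and error bars are SD (GF n = 6, CONV-R n = 7). In the panels of Thbd, Pros1, F3 and F2r no CONV-R point reaches the lowest GF point.

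The libraries held 23407168 to 35478115 counts in GF and 7590320 to 32869515 in CONV-R. All 10 pan-endothelial markers, such as Kdr and Eng, were detected, and their summed level was 17001 to 18872 CPM in GF and 9152 to 17005 CPM in CONV-R. Of these markers 5 rose and 0 fell in GF. The summed level of 14 hepatocyte markers was 718 to 1106 CPM in GF and 1162 to 6823 CPM in CONV-R, without overlap, and 11 of the 13 tested fell. Neutrophil and monocyte markers summed to 100.2 to 227 CPM in GF and 223 to 2298 CPM in CONV-R, and Kupffer cell markers to 2420 to 3828 CPM in GF and 2355 to 7491 CPM in CONV-R. CONV-R library 1 stood apart, with the lowest endothelial sum, the highest hepatocyte sum and 1644 CPM of B cell markers, against 21.5 to 39.0 CPM in GF and 58.6 to 83.3 CPM in the other CONV-R libraries. In bulk RNA, a smaller share of a cell type and less RNA per cell cannot be told apart. The names of the libraries carry a code number, 6 for GF and 10 or 9 for CONV-R. What it stands for is not stated, and it cannot be told apart from the group.

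Upstream sequence was read from RefSeq promoter windows on GRCm38.p6, which run from 250 bases before to 50 bases after a start site and were found for 7 of the 9 genes, all but Thbd and F2rl1, which were therefore not searched. The stretches shown hold the AP-1 motif TGACTCA, searched on both strands and shown in capitals. They are given because F3 and F2r were among the genes higher in GF and Procr was not. Strands are plus for Procr and F3 and minus for F2r, and each stretch is written 5′ to 3′ along the strand of its gene.
Procr, chr2:155751023-155751109: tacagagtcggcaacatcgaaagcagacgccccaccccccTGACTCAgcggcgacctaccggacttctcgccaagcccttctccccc
F3, chr3:121723362-121723448: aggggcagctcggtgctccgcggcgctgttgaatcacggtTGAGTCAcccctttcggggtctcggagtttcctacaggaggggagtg
F2r, chr13:95618624-95618710: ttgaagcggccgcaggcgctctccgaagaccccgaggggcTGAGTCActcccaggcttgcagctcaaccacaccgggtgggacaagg
The motif begins 135 bases before the start of F3 and 204 before that of F2r. For Procr the window is set on a start site at 155751217, inside the gene record that begins at 155751125, and the motif begins 154 bases before that start site and 62 before the gene record. It was in 3 of the 8 windows of these 7 genes and in 1709 of all 32851 windows (5.2%). The CACCC box, whose letters CACCC are part of the sites of Krüppel-like factors, was in 8 of the 8 windows and in 57.5% of all windows. A fixed form of the kappaB motif, which must open with a run of G, was in 0 of the 8 windows and in 1.63% of all windows. The F3 stretch above holds a run of letters that differs from this form only in its first base. Other forms were not searched, so this count does not show that the windows lack a kappaB site. The AP-1 motif was thus present for F3 and F2r, which passed the test, and for Procr, which did not. It was absent from the windows of Pros1, which passed, and of Tfpi, Gas6 and F2rl3, which did not. These matches describe letters in a window and say nothing of binding.

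Thbd, which encodes thrombomodulin, had the largest difference of the 9. The gene has 1 exon and lies on chromosome 2 from 148404471 to 148408188 (GRCm38, minus strand). Its level was 379.9 to 690.0 CPM in GF, with a median of 561, and 116.4 to 225 CPM in CONV-R, with a median of 179. The lowest GF library, number 10, therefore stood well above the highest CONV-R library, number 3. The group means were 551 ± 116.3 CPM in GF and 173 ± 36.5 CPM in CONV-R (SD, n = 6 and 7), a 3.17-fold difference (log2 fold change 1.67 ± 0.16 SE, adjusted p = 3.50e-05, edgeR). These levels rest on 12786 to 16750 counts per GF library and 1270 to 6638 per CONV-R library.

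The Thbd difference was also measured against narrower sets of libraries and other scalings. It was 1.55 on the log2 scale when CONV-R was restricted to code number 10 and 1.83 when it was restricted to code number 9. Scaled to the summed pan-endothelial markers in place of TMM it was 1.34 (adjusted p = 1.85e-04, edgeR). Against CONV-R 2, 3 and 4 only, whose hepatocyte sums of 1162 to 2616 CPM include the lowest in that group, it was 1.43 (adjusted p = 6.82e-04). With the hepatocyte sum as a covariate it was 1.34 (adjusted p = 0.00941). Thbd is also known as a gene of pericentral endothelium, and 4 of 7 other pericentral markers rose in GF, with a summed level of 1870 to 2174 CPM in GF and 1106 to 1866 CPM in CONV-R. Their part in the Thbd difference was not tested.

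Procr, the gene of the endothelial protein C receptor, did not pass the test. It was low, at 8.57 to 9.92 CPM in GF and 5.84 to 11.6 CPM in CONV-R. The GF libraries lay inside the CONV-R range. Its mean was 9.17 ± 0.53 CPM in GF and 9.23 ± 1.82 CPM in CONV-R (log2 fold change -0.01 ± 0.13, adjusted p = 0.963, edgeR). Procr lies on chromosome 2 from 155751125 to 155755478, on the plus strand, and no other annotated exon overlaps its exons.

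The balance between both genes was tested as a log2 ratio of CPM + 0.5 in each library. Thbd to Procr stood at 5.81 ± 0.35 in GF and 4.16 ± 0.52 in CONV-R, a difference of 1.65 with all 6 GF libraries above every CONV-R library. The exact two-sided permutation test gave p = 5.83e-04, the smallest that its 1716 splits allow, and 0.00233 after adjustment over 4 ratios. Procr itself hardly differed (log2 fold change -0.01), so the ratio restates the Thbd difference (1.67) and is not separate support for it.

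Pros1, which encodes protein S, the cofactor of activated protein C and a ligand of the TAM receptor kinases, rose modestly in GF. Its level was 750.4 to 817 CPM in GF, with a median of 794, and 411 to 681 CPM in CONV-R, with a median of 590. The groups did not overlap, and CONV-R library 1 was far below the rest of its group. The means were 786 ± 29.0 CPM in GF and 589.7 ± 89.2 CPM in CONV-R, a 1.33-fold difference (log2 fold change 0.42 ± 0.10, adjusted p = 0.0105, edgeR). The call was lost at 0.11 (adjusted p = 0.197) when libraries were scaled to the summed pan-endothelial markers, at 0.40 (adjusted p = 0.0686) against code number 10 alone, and at 0.14 (adjusted p = 0.622) with the hepatocyte sum as a covariate. It held at 0.25 (adjusted p = 0.0114) against CONV-R 2, 3 and 4 only. Pros1 spans chromosome 16 from 62854307 to 62929346.

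Gas6, the gene of the other vitamin K-dependent TAM ligand, did not pass. It stood at 470.5 to 546 CPM in GF and 328 to 656 CPM in CONV-R, so that GF lay inside the CONV-R range. The means were 513 ± 27.0 CPM in GF and 476 ± 136 CPM in CONV-R (log2 fold change 0.11 ± 0.16, adjusted p = 0.662, edgeR). The CONV-R libraries were divided, with 2, 3 and 4 at 567.9 to 656 CPM and 1, 6 and 7 at 328 to 376 CPM. Against 2, 3 and 4 only, Gas6 was lower in GF, by -0.25 on the log2 scale (adjusted p = 0.0218, edgeR), and against code number 9 alone it was higher, by 0.37 (adjusted p = 0.0207). Gas6 lies on chromosome 8 from 13465374 to 13494535, and 34 bases of its exons, 1.33%, overlap Tmem255b on the other strand, where reads of both genes cannot be told apart if strand was not used in counting.

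The log2 ratio of Pros1 to Gas6 was 0.62 ± 0.07 in GF and 0.34 ± 0.28 in CONV-R (difference 0.27, exact two-sided permutation test, p = 0.0472, and the same after adjustment over 4 ratios). No GF library exceeded the highest CONV-R library, and the call held without CONV-R 6 and without CONV-R 7 but was lost without any 1 of the other 11 libraries, where the adjusted p was 0.0543 to 0.0732. Against code number 9 alone the difference was 0.038.

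Tissue factor, encoded by F3, was scarce in these libraries but higher in GF. Its level was 1.82 to 3.46 CPM in GF, with a median of 2.25, and 0.25 to 1.70 CPM in CONV-R, with a median of 1.083. The groups were separate, by a narrow margin. The means were 2.43 ± 0.66 CPM in GF and 1.04 ± 0.50 CPM in CONV-R, a 2.38-fold difference (log2 fold change 1.25 ± 0.33, adjusted p = 0.0168, edgeR). The counts behind these levels were 45 to 99 per GF library and 5 to 47 per CONV-R library, so counting error adds to the spread. F3 spans chromosome 3 from 121723537 to 121735052.

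Cholangiocyte markers moved in the same direction as F3. Their summed level was 145 to 369 CPM in GF and 47.0 to 249.6 CPM in CONV-R, and 3 of 8 members rose and 1 fell. GF libraries 13 and 10, which had the highest F3 levels (3.46 and 2.94 CPM), also had the highest cholangiocyte sums (369 and 362 CPM). GF library 9, with the lowest cholangiocyte sum of its group (145 CPM), held 2.47 CPM of F3. CONV-R libraries 2 and 3 had higher cholangiocyte sums (249.6 and 213 CPM) but less F3 (1.54 and 1.08 CPM). CONV-R library 6, with the most F3 of its group (1.70 CPM), had a cholangiocyte sum of 82.7 CPM. The part of these cells in the F3 difference was not tested. The F3 call was lost at 0.90 (adjusted p = 0.422, edgeR) with the hepatocyte sum and at 1.18 (adjusted p = 0.0540) with the Kupffer cell sum as a covariate.

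Tfpi, the gene of tissue factor pathway inhibitor, was abundant and did not pass. It stood at 502 to 587 CPM in GF and 311 to 599 CPM in CONV-R, and GF fell within the CONV-R range. CONV-R library 1 was the low one, with the other CONV-R libraries at 464 CPM or more. The means were 547 ± 31.2 CPM in GF and 508 ± 96.4 CPM in CONV-R (log2 fold change 0.11 ± 0.12, adjusted p = 0.561, edgeR). Scaled to pan-endothelial markers the estimate was -0.20 (adjusted p = 0.102). Tfpi lies on chromosome 2 from 84432855 to 84476775.

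The log2 ratio of F3 to Tfpi was -7.57 ± 0.34 in GF and -8.42 ± 0.41 in CONV-R. The difference of 0.85 passed (exact two-sided permutation test, p = 0.00350, 0.00699 after adjustment over 4 ratios), with 3 of 6 GF libraries above every CONV-R library. Against code number 9 alone it was 0.77 (adjusted p = 0.0635), where 3 libraries limit the test. Tfpi itself hardly differed (log2 fold change 0.11), so the ratio mostly restates the F3 difference (1.25) and is not separate support for it. F3 is so scarce that the added 0.5 CPM makes the ratio difference smaller.

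**Figure D2:**
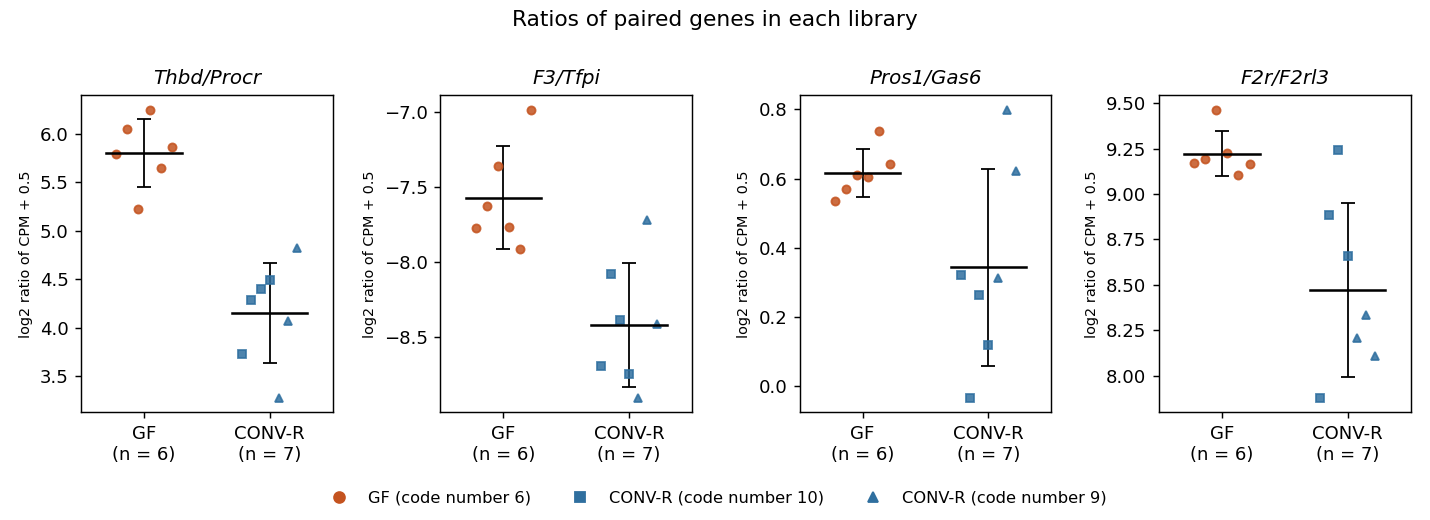
Log2 ratio of CPM + 0.5 of paired genes in each library, on axes that do not start at 0. Points are libraries, bars are means and error bars are SD (GF n = 6, CONV-R n = 7). The GF points of Thbd/Procr all lie above the CONV-R points, at means of 5.81 and 4.16, and those of Pros1/Gas6 lie inside the CONV-R range.

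F2r, which encodes the main thrombin receptor of endothelial cells, was the most abundant of the protease-activated receptor genes and rose in GF. Its level was 729.9 to 937 CPM in GF, with a median of 807, and 308 to 713 CPM in CONV-R, with a median of 539.9. The groups did not overlap, although the highest CONV-R library, number 3, was close to the lowest GF library, number 10. The means were 829.7 ± 79.03 CPM in GF and 524 ± 134 CPM in CONV-R, a 1.58-fold difference (log2 fold change 0.66 ± 0.16, adjusted p = 0.0103, edgeR). F2r lies on chromosome 13 from 95601780 to 95618466.

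CONV-R libraries 1 and 7, which were the lowest in F2r at 308 and 395 CPM, also had the lowest pan-endothelial sums (9152 and 12060 CPM) and the highest hepatocyte sums (6823 and 6029 CPM). Without both, the F2r difference was 0.48 (adjusted p = 0.00301, edgeR), and against CONV-R 2, 3 and 4 only it was 0.43 (adjusted p = 0.0162). Scaled to the pan-endothelial markers it was 0.39 (adjusted p = 0.00803). CONV-R library 3 had an endothelial sum of 17005 CPM, and GF libraries 8, 10, 12 and 13 had 17001 to 17199 CPM. In these libraries F2r stood at 786, 729.9, 912 and 803 CPM in GF and at 713 CPM in CONV-R, so that GF library 10 was close to the CONV-R value. CONV-R libraries 2 and 4, with slightly lower endothelial sums of 16197 and 16851 CPM, held 607 and 528 CPM of F2r. The call was lost at 0.15 (adjusted p = 0.735) with the hepatocyte sum as a covariate, which itself did not overlap between the groups. It was also lost at 0.62 (adjusted p = 0.0595) against code number 10 alone.

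**Figure D3:**
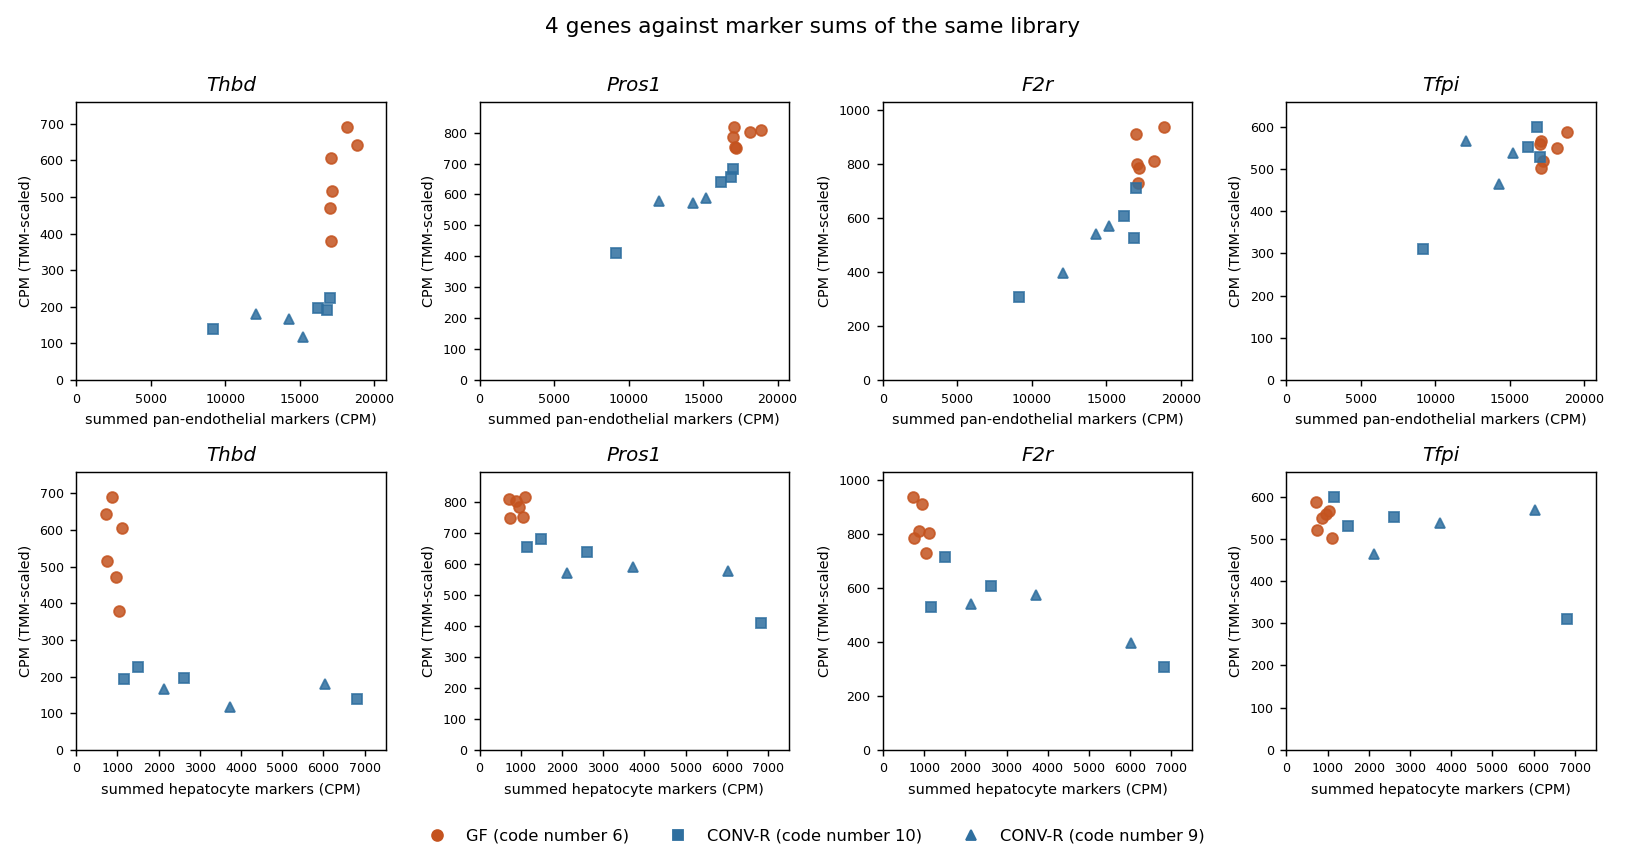
Level of Thbd, Pros1, F2r and Tfpi in each library (vertical axis, CPM from 0) against the summed pan-endothelial markers (top row) and summed hepatocyte markers (bottom row) of the same library. Where the endothelial sums of both groups meet, at GF libraries 8, 10, 12 and 13 and CONV-R library 3, Thbd is at 379.9 to 605 CPM in GF and 225 CPM in CONV-R, and Tfpi at 502 to 566 CPM in GF and 529 CPM in CONV-R. CONV-R libraries 2 and 4, at slightly lower sums of 16197 and 16851 CPM, have 196 and 192 CPM of Thbd and 552 and 599 CPM of Tfpi.

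F2rl1, the gene of a protease-activated receptor that trypsin-like enzymes rather than thrombin cleave, did not pass. It stood at 1.79 to 3.38 CPM in GF and 0.75 to 6.29 CPM in CONV-R. CONV-R library 1 alone held 6.29 CPM, from 124 counts, and the next CONV-R library held 2.39 CPM. The means were 2.33 ± 0.58 CPM in GF and 2.07 ± 1.93 CPM in CONV-R (log2 fold change 0.16 ± 0.43, adjusted p = 0.824, edgeR). Without CONV-R library 1 the log2 fold change was 0.74 (adjusted p = 0.0634), and against code number 9 alone it was 1.07 (adjusted p = 0.0256). That library also held the most B cell markers (1644 CPM), whose part in its F2rl1 level was not tested. The gene lies on chromosome 13 from 95511718 to 95525240, near F2r.

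F2rl3, which encodes the other thrombin-cleaved receptor and is known from mouse platelets, was the least abundant in GF. It stood at 0.53 to 1.16 CPM in GF and 0.68 to 1.44 CPM in CONV-R, from 18 to 40 and 9 to 27 counts per library. The groups overlapped, with means of 0.90 ± 0.22 CPM in GF and 0.95 ± 0.27 CPM in CONV-R (log2 fold change -0.04 ± 0.24, adjusted p = 0.916, edgeR). At this depth a difference of the size seen in Pros1 could not be told from 0. Summed platelet and megakaryocyte markers were 27.6 to 38.4 CPM in GF and 25.3 to 55.6 CPM in CONV-R. F2rl3 spans chromosome 8 from 72761659 to 72763898 and has 1 exon.

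The log2 ratio of F2r to F2rl3 was 9.22 ± 0.12 in GF and 8.47 ± 0.48 in CONV-R, a difference of 0.75 (exact two-sided permutation test, p = 0.00758, 0.0101 after adjustment over 4 ratios). Only 1 of 6 GF libraries, number 10, lay above every CONV-R library. Against CONV-R 2, 3 and 4 only the difference was 0.29 (adjusted p = 0.0714). F2rl3 itself hardly differed (log2 fold change -0.04), so this ratio mostly restates the F2r difference (0.66).

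**Figure D4:**
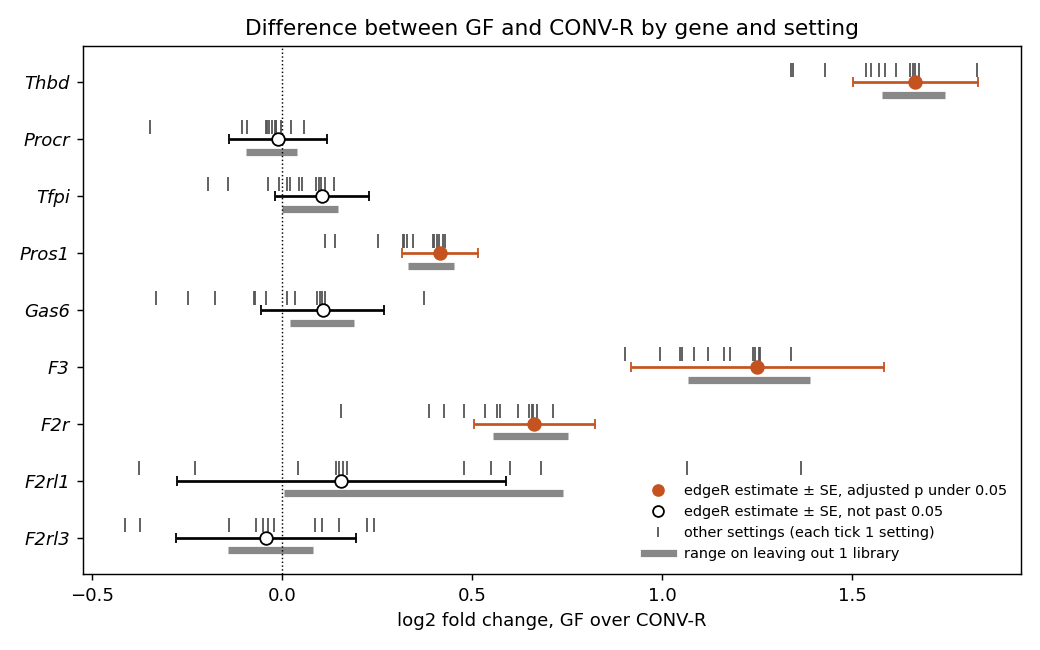
Log2 fold change of GF over CONV-R for each gene (horizontal axis). Circles with bars are the edgeR estimates ± SE, filled where the adjusted p is under 0.05, ticks are the estimates under other settings, and grey bars span the estimates on leaving out 1 library. Thbd stays between 1.34 and 1.83 under every setting drawn, whereas ticks of Gas6, Tfpi, Procr, F2rl1 and F2rl3 lie on both sides of 0.

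Levels of the 9 genes were compared with each other per length, as CPM per kilobase of merged exons of the GENCODE M21 annotation. In GF the order from high to low was F2r (249 ± 23.7), Gas6 (201 ± 10.6), Pros1 (192 ± 7.08), Thbd (148 ± 31.2), Tfpi (100.1 ± 5.71), Procr (4.51 ± 0.26), F3 (0.96 ± 0.26), F2rl1 (0.85 ± 0.21) and F2rl3 (0.45 ± 0.11). In CONV-R it was Gas6 (187 ± 53.3), F2r (157 ± 40.3), Pros1 (144 ± 21.8), Tfpi (93.1 ± 17.6), Thbd (46.6 ± 9.80), Procr (4.55 ± 0.90), F2rl1 (0.76 ± 0.71), F2rl3 (0.47 ± 0.13) and F3 (0.41 ± 0.20). Thbd was thus above Tfpi in 5 of 6 GF libraries and below it in 7 of 7 CONV-R libraries. This order depends on the merged exon lengths used, 3723 bases for Thbd and 5463 for Tfpi. Without division by length, Thbd and Tfpi had means of 551 and 547 CPM in GF and 173 and 508 CPM in CONV-R.

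Neighbours in these orders were compared by their ranges over libraries and within each library. In GF the ranges of Gas6 and Pros1, Thbd and Tfpi, and F3 and F2rl1 overlapped, and the first of each pair was higher in 5 of 6 libraries. Pros1 and Thbd also overlapped in range, but Pros1 was higher in 6 of 6 GF libraries. In CONV-R, Pros1 was above Tfpi in 7 of 7 libraries although their ranges overlapped, as did those of Tfpi and Thbd. The order was less settled for Gas6 and F2r (Gas6 higher in 6 of 7), F2rl1 and F2rl3 (F2rl1 higher in 5 of 7), and for F2r and Pros1 and F2rl3 and F3 (the first higher in 4 of 7). The step from the 5 abundant genes down to Procr was clear of overlap in both groups.

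**Figure D5:**
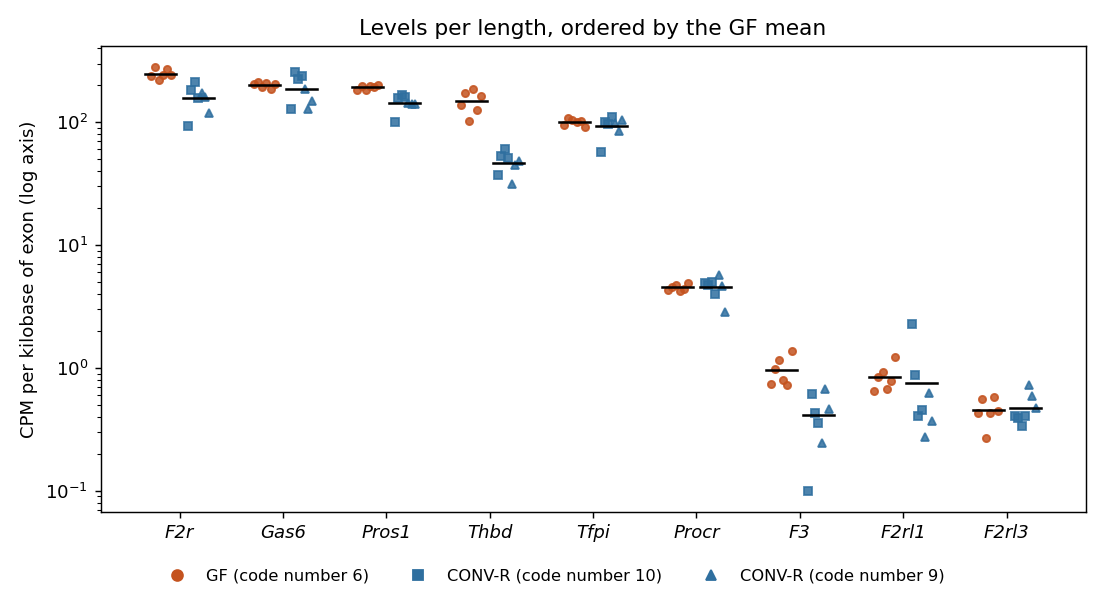
Level of each gene in CPM per kilobase of exon (logarithmic vertical axis), with genes ordered by their GF mean. Points are libraries and bars are group means (GF n = 6, CONV-R n = 7). The 5 genes on the left lie far above Procr, and F3, F2rl1 and F2rl3 lie lowest.

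Other genes of the pathway were taken from 5 lists with 49 genes, of which 48 were tested. Among them 2 rose (4.17%), 16 fell (33.3%) and 30 did not pass, with a median log2 fold change of -0.09. Over all genes tested, 11.4% rose and 12.7% fell. These lists too were chosen with earlier results of these data known. The fallen genes were 11 of 12 coagulation proteases and cofactors and 5 of 9 tested plasma and tissue anticoagulants. These are mostly genes that hepatocytes express, and hepatocyte markers were lower in GF as well (718 to 1106 CPM in GF, 1162 to 6823 CPM in CONV-R). A fit with the hepatocyte sum as a covariate is given below. Since that sum did not overlap between the groups, the part of hepatocyte RNA in these lower levels cannot be fully told apart from the group.

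Within the coagulation list, F2, the gene of prothrombin, stood at 14.3 ± 2.55 CPM in GF and 62.9 ± 43.7 CPM in CONV-R (log2 fold change -2.13 ± 0.41, adjusted p = 0.00348, edgeR). Kng1, the gene of kininogen, fell by more (-2.70 ± 0.47), as did F12 (-2.73 ± 0.51), which encodes the factor that starts contact activation. With the hepatocyte sum as a covariate 0 of the 48 genes were lower, and F2 stood at -0.12. That sum did not overlap between the groups, and with it the calls over all genes also fell, from 3357 to 496. In the anticoagulant list, Serpinc1, the gene of antithrombin, fell (-2.46 ± 0.45, adjusted p = 0.00268). Proc, the gene of protein C itself, was at 5.47 ± 2.04 CPM in GF and 18.1 ± 12.0 CPM in CONV-R (-1.72 ± 0.42, adjusted p = 0.0112, edgeR). That call was lost at -0.75 (adjusted p = 0.112) against CONV-R 2, 3 and 4 only, at -1.50 (adjusted p = 0.0533) against code number 10 alone and at -1.23 (adjusted p = 0.0773) with the Kupffer cell sum as a covariate. Proc turned to 0.21 (adjusted p = 0.648) with the hepatocyte sum as a covariate.

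The receptors for protein S and Gas6 and the enzymes of the vitamin K cycle held 0 of 6 past the threshold in either direction (edgeR), and 1 lower at an unadjusted p under 0.05. That gene was Axl, at 162 ± 25.4 CPM in GF and 245 ± 89.01 CPM in CONV-R (log2 fold change -0.59 ± 0.22, adjusted p = 0.0600), which DESeq2 called (-0.60, adjusted p = 0.0283), while limma-voom called 0 of the 6. Axl was also called at -0.93 (adjusted p = 0.00104, edgeR) against code number 9 alone and stood at 0.01 against CONV-R 2, 3 and 4 only. Kupffer cells also express TAM receptors, and their markers were highest in CONV-R 5 and 6 (7202 and 7491 CPM). The part of these cells in the Axl difference was not tested. Mertk, the most abundant TAM receptor gene here, stood at 502 ± 23.1 CPM in GF and 472 ± 60.0 CPM in CONV-R (0.09 ± 0.09, adjusted p = 0.465).

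Of 16 partners and G protein effectors of the protease-activated receptors, 2 rose and 14 did not pass. For comparison, 11.4% of all genes tested rose and 12.7% fell. Arrb1, which encodes a beta-arrestin that desensitises and scaffolds such receptors, stood at 996 ± 49.4 CPM in GF and 618 ± 93.9 CPM in CONV-R (log2 fold change 0.69 ± 0.10, adjusted p = 5.76e-04, edgeR). All GF libraries of Arrb1 were above all CONV-R libraries, as for 5.94% of all genes tested. The Arrb1 call was lost at 0.43 (adjusted p = 0.0792) with the hepatocyte sum as a covariate. Rhoa, the small GTPase downstream of thrombin signalling, changed by 0.22 ± 0.07 (adjusted p = 0.0309), a call lost on leaving out any 1 of 8 libraries, and its sign turned (-0.11) when scaled to pan-endothelial markers. Over all other settings and fits without 1 library, the Rhoa call was kept in 11, lost in 14 and reversed in 1. F2rl2, the gene of a thrombin-cleaved co-receptor, was at 0.66 ± 0.12 CPM in GF and 0.93 ± 0.81 CPM in CONV-R (-0.49 ± 0.42, adjusted p = 0.407).

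The Krüppel-like factors known to raise Thbd, and the MEF2 factors that act upstream of them, did not pass. In the list of KLF and MEF2 factors 0 of 5 passed in edgeR, with 0 at an unadjusted p under 0.05, and 0 passed in DESeq2, also with 0 at an unadjusted p under 0.05, and in limma-voom. Mef2c was lower at an unadjusted p of 0.0439 in limma-voom (-0.21, adjusted p = 0.120). Klf2, the shear-responsive factor that raises Thbd, stood at 146 ± 26.5 CPM in GF and 163 ± 35.2 CPM in CONV-R (log2 fold change -0.15 ± 0.14, adjusted p = 0.451, edgeR). Klf4 stood at 55.5 ± 11.5 CPM in GF and 47.5 ± 12.3 CPM in CONV-R (0.22 ± 0.18, adjusted p = 0.380).

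Among 9452 other tested genes with a mean of at least 10 CPM, those whose deviations from their group mean followed those of Thbd most closely over the 13 libraries were B4galt1 (Pearson r = 0.92), Rab27a (0.90), Rngtt (0.89), Ptbp3 (0.88) and Hs2st1 (0.88). These values describe likeness only, since the best of so many genes over few libraries is high by selection and the libraries share depth and cell make-up. Rab27a stood at 228 ± 39.8 CPM in GF and 100.1 ± 18.6 CPM in CONV-R (log2 fold change 1.19 ± 0.14, adjusted p = 1.33e-04, edgeR), and Ptbp3 changed by 0.47 ± 0.10 (adjusted p = 0.00468). B4galt1 (adjusted p = 0.0789), Rngtt (adjusted p = 0.471) and Hs2st1 (adjusted p = 0.124) did not pass.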

How the data were processed

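The authors' deposited values are raw counts for each gene symbol and library in a single table, made, per the submitters' processing notes, with FastQC 0.11.9, STAR 2.7.5a, featureCounts 2.0.1 and DESeq2 1.42.1 on build mm10. Annotation, strand setting, handling of multimapping reads and filters were not given in the sources used here. Libraries were matched to labels by the library codes in the column names.

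The group effect was tested in edgeR 4.0.16 under R 4.3.3: filterByExpr (minimum count 10, total 15), TMM scaling, robust quasi-likelihood fit of group over all 13915 genes, Benjamini-Hochberg adjustment, threshold 0.05. All 9 members passed the filter. SE is the absolute log2 fold change over the square root of F. Alternatives used DESeq2 1.42.0, limma 3.58.1, other scalings, filters, covariates and subsets of libraries. On data simulated for this comparison (13840 genes) the fit recovered 38.8% of genes changed 1.5-fold, 74.2% at 2-fold and 87.9% at 4-fold. Only 67, 66 and 66 genes were changed there, against 3357 called in the data, and no difference in cell make-up was simulated. The shares recovered may therefore differ from those in the data. All pairs of libraries of a group differed by more than sampling noise (chi-square over its degrees of freedom at least 13.4).

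Members and lists were chosen with earlier results of these data known. Named genes were the members, up to 6 genes past the threshold per pathway list or the most abundant, 5 fixed genes, 2 per marker list and the 5 most like Thbd. Some of these are given only in counts and sums. Tmem255b and Mef2c were named after the values were seen.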

Additional observations from a re-analysis of the deposited data

Results flagged for a closer look

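A single library lay far from the others of its group in 5 of 64 groups of values examined, where chance alone flags about 1 in 20. In CONV-R, library 1 was far below the rest for Pros1 (411 CPM, the next at 571), and far above for F2rl1 (6.29 CPM, the next at 2.39) and for F2rl2 (2.69 CPM, the next at 1.09). The same library had the highest hepatocyte and B cell marker sums of its group and the lowest pan-endothelial sum. In GF, library 13 was far below the rest for Arrb1 (900.5 CPM, the next at 985), and library 10 far above for the log2 ratio of F2r to F2rl3 (9.46, the next at 9.23), where it had 18 counts of F2rl3.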

How the results depend on the processing

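Thbd kept its direction and call under all 13 other settings and on leaving out each library (1.58 to 1.74 on the log2 scale), and so did its ratio to Procr where that was run. The 4 calls among the 9 genes held on leaving out any library, and CONV-R 2, 3 and 4 only and the set without CONV-R 1 and 7 were chosen after seeing the data.

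Over all genes, 1593 higher and 1764 lower (47.5% higher) became 971 and 2773 (25.9%) with library totals, 340 and 3825 (8.16%) with pan-endothelial scaling, 978 and 1000 against code number 10 alone, 272 and 224 with the hepatocyte covariate and 914 and 790 with the Kupffer cell covariate. Leaving out 1 library gave 1013 (without GF library 9) to 1765 higher. The middle log2 fold change over all genes was -0.11 with library totals and -0.35 with pan-endothelial scaling.

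Genes of the 9 called higher numbered 2 against code number 10 alone (without Pros1, 0.40, and F2r, 0.62) and 1 with the hepatocyte covariate (without Pros1, 0.14, F2r, 0.15, and F3, 0.90). With pan-endothelial scaling Pros1 was lost (0.11), and with the Kupffer cell covariate F3 (1.18). Against code number 9 alone Gas6 (0.37) and F2rl1 (1.07) passed, and against CONV-R 2, 3 and 4 only Gas6 reversed (-0.25), 1 gene lower. Ratios that lost their call were F3 to Tfpi (0.77) and Pros1 to Gas6 (0.038) against code number 9 alone, F2r to F2rl3 (0.29) against CONV-R 2, 3 and 4 only, and Pros1 to Gas6 on leaving out single libraries (0.21 to 0.35).

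Of other pathway genes, 2 were higher and 16 lower. The higher ones numbered 8 against code number 9 alone, 1 with library totals, pan-endothelial scaling, either covariate, code number 10 alone, CONV-R 2, 3 and 4 only or without CONV-R 1 and 7, and on leaving out 1 library 1 (without CONV-R 1, 6 or 7 or GF 8, 9, 11, 12 or 13) to 4 (without CONV-R 3, and 3 without CONV-R 2). The lower ones numbered 0 with the hepatocyte and 8 with the Kupffer cell covariate. With the hepatocyte covariate F9 (0.13), Serpina10 (0.16), Serpind1 (0.27) and Proc (0.21) reversed, and with pan-endothelial scaling Rhoa (-0.11). The cause of these changes was not tested. The hepatocyte sum did not overlap between groups, so that covariate and the group cannot be told apart fully. F2rl3 was not tested under the stricter filter. No paired analysis was possible because the groups share no replicate numbers. Counts of F3 and F2rl3, under 100 per library, limit what could be detected.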

Other observations

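Other marker lists gave the following values beside the 9 genes. Of 8 sinusoidal endothelial markers, which include Stab1 and Stab2, 5 rose in GF and 0 fell, and their summed level was 27684 to 30243 CPM in GF and 14336 to 25825 CPM in CONV-R, without overlap. Of 7 periportal endothelial markers 2 rose and 1 fell in GF, with sums of 3833 to 4309 CPM in GF and 2285 to 3637 CPM in CONV-R. Stellate cell and fibroblast markers summed to 160.3 to 768 CPM in GF and 122 to 267 CPM in CONV-R. GF library 11 held the 768 CPM, and it also had the highest Thbd level of all libraries (690.0 CPM). Without that library the log2 fold change of Thbd was 1.59 (adjusted p = 1.43e-04, edgeR).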
